A study of Arabidopsis thaliana with 6 samples.

Results

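The genes described here encode the phosphorylated pathway of serine synthesis and the enzymes that turn serine into cysteine. They are 10 of the 21430 loci in the deposited table, namely PGDH1 (AT4G34200), PGDH2 (AT1G17745), PGDH3 (AT3G19480), PSAT1 (AT4G35630), PSP1 (AT1G18640), SERAT2;1 (AT1G55920), SERAT2;2 (AT3G13110), OASA1 (AT4G14880), OASB (AT2G43750) and OASC (AT3G59760). The members were chosen by their place in the pathway and matched by locus, but with the H2O2-minus-mock changes of these same arrays already known. Those changes are therefore given as a description of the arrays, and neither the counts of members nor their calls support anything beyond it.

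Wild-type Arabidopsis thaliana Columbia-0 seedlings grew for 7 days in liquid half-strength medium with sucrose. They then spent 24 h with hydrogen peroxide (H2O2) at 10 mM, or with an equal volume of water (mock). There were 3 Affymetrix arrays for mock and 3 for H2O2, and each array carried RNA pooled from 4 to 5 plants. The RNA is labelled as leaf in one field and as seedling in others, and PYK10, known as a root gene, had a mean log2 value of 12.02 in mock. The labels do not state whether the pools stem from separate cultures. The p-values thus measure the spread between these pools only, which may be technical, and precision is bounded by having 3 arrays a group.

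In plants the phosphorylated pathway works in the plastid. Phosphoglycerate dehydrogenase (PGDH) oxidises the glycolytic intermediate 3-phosphoglycerate, phosphoserine aminotransferase (PSAT) adds the amino group, and phosphoserine phosphatase (PSP) releases serine. It is known for supplying serine to non-green and dividing tissues, alongside the photorespiratory route through glycine in mitochondria of leaves. Serine acetyltransferase (SERAT) then makes O-acetylserine, and O-acetylserine thiol-lyase (OAS-TL) exchanges the acetyl group for sulfide to give cysteine. SERAT and OAS-TL bind each other in the cysteine synthase complex, and both steps exist in plastid, mitochondria and cytosol.

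The values are log2 GCRMA values, so 1 unit is a 2-fold difference, and they serve to compare groups for 1 gene, not levels between genes. A gene is called higher or lower where limma, fitted over all 15001 probe sets kept, gave an adjusted p under 0.05. Of the 10 members, 5 were called higher, 3 lower and 2 neither, while 23.9% of all tested probe sets were called higher and 36.5% lower. Changes called higher and at least 2-fold were seen for 3 members, PGDH2, PSAT1 and SERAT2;1, against 7.63% of all tested probe sets. The median log2 change of the members was 0.12, and that of all tested probe sets was -0.10. All 10 members passed the filter on low values, and PSP1 in H2O2 replicate 1 had a value of 6.04 where the filter lay at a mean of 3.79.

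The scaling of the arrays touches the smaller changes and many of the decreases. The log2 changes of 7 reference genes, often used as stable in Arabidopsis, ran from -0.48 to 0.01 with a median of -0.15, and AT4G33380, RHIP1 and PP2AA3 among them were called lower. Leaving out any array except mock replicate 2 ended the PP2AA3 call (adjusted p = 0.050 to 0.096 in limma), and so did quantile normalization (adjusted p = 0.061). Centring each array on the median level of these genes (the median centring) moved the median change of all tested probe sets up by 0.31, more than the median change of the reference genes themselves, and left them at a median of 0.16. Centring on their mean level (the mean centring) moved it up by 0.21, and centring on the median of each gene's deviation from its own mean (the deviation centring) by 0.18. Among calls over all probe sets, 39.5% were higher as deposited (3584 higher and 5482 lower), 76.5% with the median centring (6495 and 1998), 64.7% with the mean centring (5503 and 3008) and 61.7% with the deviation centring (5102 and 3164). The share of all tested probe sets called higher was thus 43.3%, 36.7% and 34.0% under the median, mean and deviation centrings, and the share called lower 13.3%, 20.1% and 21.1%. The 5 members called higher were called higher under all 3 centrings. Of the 3 members called lower, PGDH3 was called lower under all 3, PSP1 with the deviation centring only, and OASB under none.

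**Figure D1:**
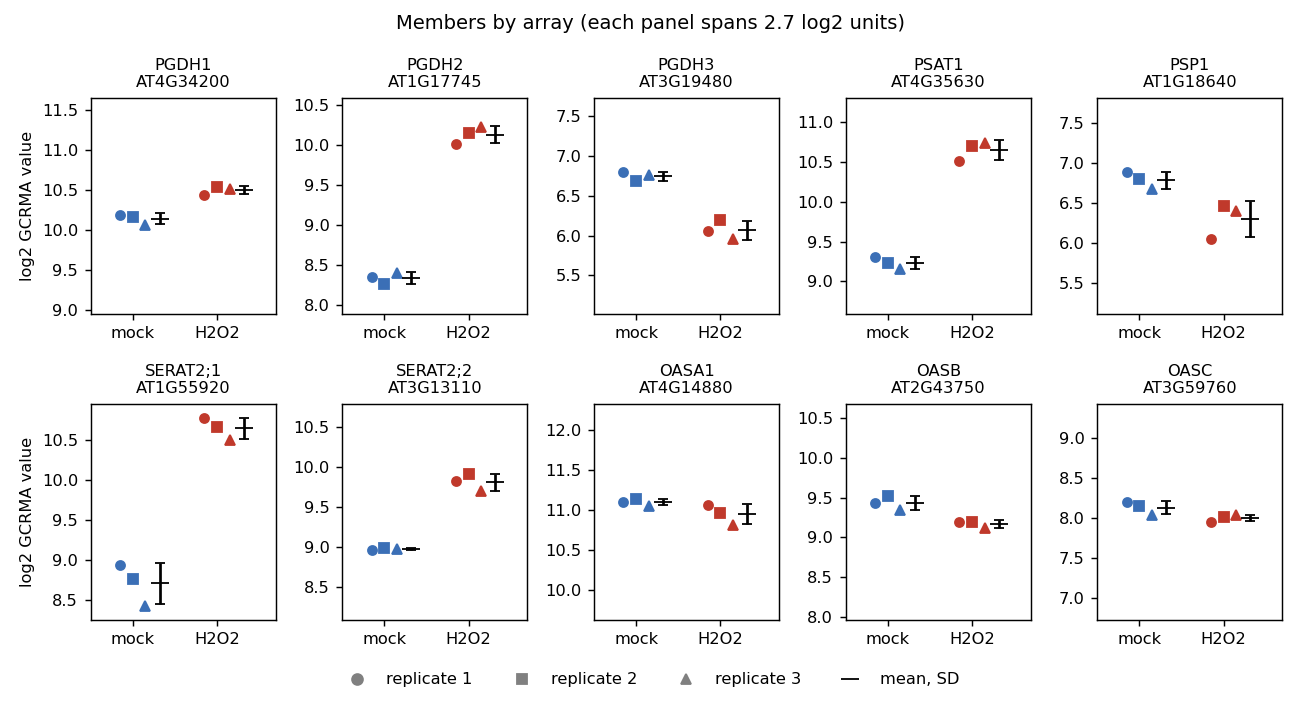
Log2 GCRMA value (vertical axis) of each member on each array, mock in blue and H2O2 in red, with a marker shape for each replicate number and the group mean and SD in black. Every panel spans the same range, so that the wide gaps of PGDH2, PSAT1 and SERAT2;1 can be set against the narrow ones of the OAS-TL genes.

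The 3 dehydrogenase genes of the first step did not move together. PGDH1 encodes the isoform whose loss arrests embryo sac and embryo development. Its log2 values were 10.19, 10.16 and 10.06 in mock and 10.44, 10.54 and 10.51 in H2O2. All H2O2 arrays lay above all mock arrays, by 0.25 at the closest. The change was 1.28-fold (log2 change 0.36, SE 0.08, adjusted p = 0.0034 in limma).

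PGDH2 encodes a second plastid dehydrogenase, reported in work on the purified enzymes to lack the inhibition by serine that PGDH1 and PGDH3 show. It had log2 values of 8.35, 8.26 and 8.40 in mock and 10.01, 10.15 and 10.22 in H2O2. The groups were parted by 1.61, far more than the spread within either. PGDH2 was 3.47-fold higher (95% interval 3.04 to 3.97), an increase exceeded by 3.20% of the tested probe sets.

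PGDH3, the third dehydrogenase gene, went the other way. Its log2 values were 6.79, 6.68 and 6.75 in mock and 6.05, 6.19 and 5.95 in H2O2. The groups did not overlap and every H2O2 array was the lower. PGDH3 was 1.60-fold lower in H2O2 (log2 change -0.68, SE 0.08), and its log2 change was -0.37 with the median centring (adjusted p = 0.0087 in limma).

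Differences between 2 genes within each array do not change when a whole array is centred anew. Only their shift between groups is informative, because probe sets differ in how brightly they report a transcript. The log2 difference of PGDH2 minus PGDH3 shifted by 2.47 between mock and H2O2, with an SD of 0.05 over the mock arrays and 0.18 over the H2O2 arrays. This is a 5.55-fold change in the ratio of these transcripts. PGDH1 minus PGDH2 shifted by -1.44 (SD 0.13 in mock and 0.07 in H2O2) and PGDH1 minus PGDH3 by 1.04 (SD 0.09 and 0.11). In each of the 3 dehydrogenase pairs the mock and H2O2 arrays were apart. These pairs are built from 3 genes and so are not independent. How often groups are apart or overlap among gene pairs at large was not computed. For single probe sets, the groups were apart in 67.2% of those tested. No test was made of these shifts, since the genes were listed with their changes known.

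**Figure D2:**
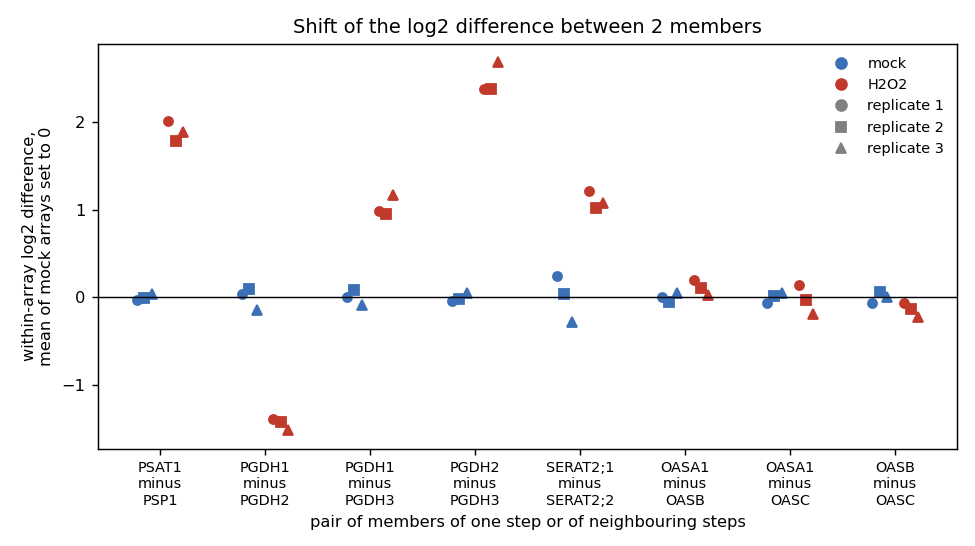
Within-array log2 difference between 2 members (vertical axis, the mean of the mock arrays set to 0) for each pair within a step and for PSAT1 with PSP1, by array. In each dehydrogenase and acetyltransferase pair and in PSAT1 minus PSP1, all H2O2 arrays (red) lay beyond all mock arrays (blue). These shifts were 1.04 to 2.47 units in size, downward for PGDH1 minus PGDH2 and upward for the others. The 3 OAS-TL pairs overlapped.

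At the middle steps PSAT1 and PSP1 moved in opposite directions. PSAT1, the aminotransferase gene, had log2 values of 9.30, 9.24 and 9.16 in mock and 10.50, 10.69 and 10.74 in H2O2. Every H2O2 array exceeded every mock array by at least 1.20. PSAT1 was 2.66-fold higher (95% interval 2.31 to 3.06), and 4.82% of the tested probe sets had a larger increase.

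PSP1 is the phosphatase gene of the last serine-forming step. Its log2 values were 6.88, 6.80 and 6.67 in mock and 6.04, 6.46 and 6.40 in H2O2. The groups were apart by 0.21, with H2O2 replicate 1 well below the other H2O2 arrays. PSP1 was lower in H2O2 (log2 change -0.48, SE 0.12, adjusted p = 0.0084 in limma). This call was lost with the median centring (-0.17, adjusted p = 0.24) and with the mean centring (-0.27, adjusted p = 0.060), and it was kept with the deviation centring (-0.30, adjusted p = 0.045). The difference of PSAT1 minus PSP1, which no centring of arrays alters, shifted by 1.89 (SD 0.04 in mock and 0.11 in H2O2).

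Both serine acetyltransferase genes were higher. SERAT2;1, for the plastid enzyme, had log2 values of 8.93, 8.75 and 8.42 in mock and 10.77, 10.66 and 10.50 in H2O2. Its mock arrays were spread more widely (SD 0.26) than those of any other member, and the groups were still 1.57 apart. SERAT2;1 was 3.84-fold higher (95% interval 3.10 to 4.75), the largest change among the members, exceeded by 2.77% of the tested probe sets.

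SERAT2;2 encodes the mitochondrial acetyltransferase, which supplies much of the O-acetylserine in leaves. Its log2 values were 8.97, 8.98 and 8.98 in mock and 9.83, 9.91 and 9.70 in H2O2. The mock arrays were nearly identical (SD 0.009), and the closest H2O2 array lay 0.71 above them. SERAT2;2 was 1.78-fold higher (log2 change 0.84, SE 0.08). The difference of SERAT2;1 minus SERAT2;2 shifted by 1.10, a 2.15-fold change in the ratio, with an SD of 0.26 over the mock arrays and 0.10 over the H2O2 arrays.

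The OAS-TL genes had the smallest changes among the members in the values as deposited, from -0.27 to -0.13 on the log2 scale. OASA1, for the cytosolic enzyme, had log2 values of 11.11, 11.14 and 11.06 in mock and 11.07, 10.97 and 10.82 in H2O2. It was the member whose groups overlapped, since H2O2 replicate 1 lay above mock replicate 3. The log2 change was -0.15 with a 95% interval of -0.35 to 0.04 (adjusted p = 0.15 in limma), an interval that holds 0.

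OASB, for the plastid enzyme, had log2 values of 9.44, 9.52 and 9.35 in mock and 9.19, 9.19 and 9.12 in H2O2. The groups were apart by 0.15. OASB was 1.20-fold lower (log2 change -0.27, SE 0.08, adjusted p = 0.017 in limma). The call was lost without mock replicate 2 (-0.22, adjusted p = 0.067), with the mean centring (-0.06, adjusted p = 0.56), with the deviation centring (-0.09, adjusted p = 0.45) and with the median centring, where the change was 0.041 (adjusted p = 0.75).

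OASC, for the mitochondrial enzyme, had log2 values of 8.19, 8.15 and 8.03 in mock and 7.95, 8.01 and 8.03 in H2O2. Mock replicate 3 and H2O2 replicate 3 differed by less than 0.001, with the mock array the higher. The log2 change of OASC was -0.13 with a 95% interval of -0.30 to 0.05 (adjusted p = 0.18 in limma). Both OASA1 and OASC had changes above 0 with each of the 3 centrings, and neither passed there. The differences within the OAS-TL pairs shifted by 0.11 (OASA1 minus OASB), -0.03 (OASA1 minus OASC) and -0.14 (OASB minus OASC), and mock and H2O2 arrays overlapped in all 3.

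Taking the members by role, 2 of 3 dehydrogenase genes were called higher and 1 lower, 1 of the aminotransferase and phosphatase pair was higher and 1 lower, both acetyltransferase genes were higher, and of 3 OAS-TL genes 1 was lower and 2 did not pass. By the compartment in which the enzymes are known to act, the 7 plastid genes divided into 4 higher and 3 lower. Among all tested probe sets 23.9% were called higher and 36.5% lower. Of the 3 lower plastid genes, PSP1 and OASB lost the call with the median and mean centrings. Of the 2 mitochondrial genes, 1 was higher and 1 did not pass, and the 1 cytosolic gene did not pass. The 3 arrays of one group lay beyond those of the other for 9 of the 10 members, where the same held for 67.2% of all tested probe sets. Half-widths of the 95% intervals ranged from 0.17 to 0.31 on the log2 scale. Mock replicate 3 gave the lowest mock value for 7 of the 10 members, against 39.9% of the tested probe sets.

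**Figure D3:**
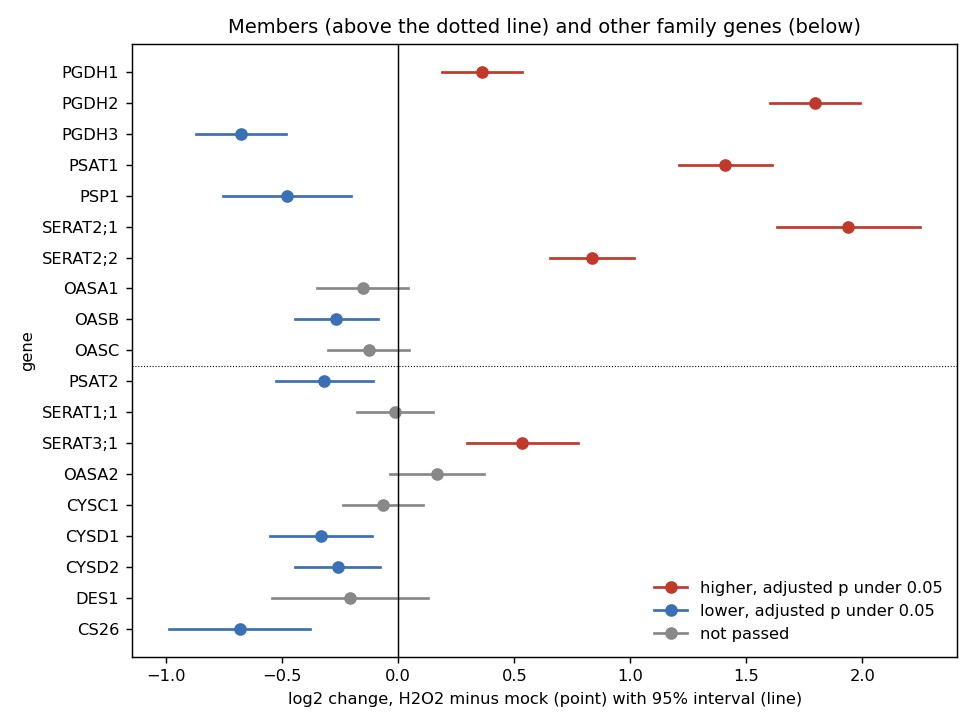
Log2 change, H2O2 minus mock (horizontal axis), with its 95% interval from limma for the 10 members and for the 9 other measured genes of the same families, coloured by call. PGDH2, PSAT1 and SERAT2;1 stand beyond 1, and no other family gene does.

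The other genes of these families were listed by locus from their annotated role. Of 10, 9 were in the table used here, of which 1 was called higher, 4 lower and 4 neither. Among all tested probe sets 23.9% were called higher and 36.5% lower. The median log2 change of the 9 was -0.21 as deposited, and 0.10, -0.001 and -0.03 with the median, mean and deviation centrings. PSAT2, the second aminotransferase gene, had log2 values of 8.00, 7.83 and 7.86 in mock and 7.70, 7.59 and 7.45 in H2O2. It was lower by 0.32 on the log2 scale (adjusted p = 0.015 in limma), opposite in sign to PSAT1. The PSAT2 call was lost with the median centring (-0.01), with the mean centring (-0.11), with the deviation centring (-0.14) and without mock replicate 1 (-0.27, adjusted p = 0.054).

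SERAT1;1, for the main cytosolic acetyltransferase, had a log2 change of -0.02 with a 95% interval of -0.18 to 0.15, and passed as higher with the median centring (0.29, adjusted p = 0.024). SERAT3;1, another cytosolic form, was higher, with log2 values of 6.25, 6.47 and 6.57 in mock and 6.94, 6.87 and 7.09 in H2O2. It was 1.45-fold higher (SE 0.10 log2), and the groups did not overlap. SERAT3;2 was not analysed here. In the reference gene table PSAT1 lies beside SERAT3;2 on chromosome 4 and PSAT2 beside SERAT3;1 on chromosome 2, with 0 protein-coding genes between the members of each pair, so aminotransferase and acetyltransferase genes adjoin in both places. In the measured pair of neighbours, PSAT2 and SERAT3;1, the log2 changes had opposite signs.

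Among further members of the OAS-TL family, CS26, for the plastid enzyme that makes S-sulfocysteine, was 1.61-fold lower (log2 change -0.68, SE 0.13), and it was called lower under all 3 centrings (-0.38 to -0.50). CYSD1 and CYSD2, cytosolic family members, were lower by 0.33 and 0.26, and neither was called under any of the 3 centrings. Leaving out any array except mock replicate 2 or H2O2 replicate 1 also ended the CYSD2 call (adjusted p = 0.054 to 0.068 in limma). CYSC1, for the mitochondrial enzyme that detoxifies cyanide with cysteine, had a log2 change of -0.07 and OASA2 one of 0.17, with adjusted p of 0.48 and 0.14 in limma. CYSC1 and OASA2 passed as higher with the median centring (adjusted p = 0.044 and 0.0048), and OASA2 also with the other two. DES1, for an enzyme that breaks cysteine down, had a log2 change of -0.21 (adjusted p = 0.25), and it was called lower once the replicate number entered as a block (adjusted p = 0.041).

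In the photorespiratory route, glycine decarboxylase and serine hydroxymethyltransferase form serine. The list for this route also holds AGT1, HPR1 and GLYK, whose enzymes act after serine is formed and do not make it. All 13 listed genes were tested, of which 8 were called lower, where 36.5% of all tested probe sets were, and 5 neither, with a median log2 change of -0.26. AGT1 (-0.38), HPR1 (-0.33) and GLYK were among those called lower, so the count is not one of serine-forming genes alone. Most of these calls rested on the scaling. With the median centring 1 of the 13 was called higher and 1 lower, where 43.3% and 13.3% of all tested probe sets were, and with the mean centring 1 was called higher and 3 lower, where 36.7% and 20.1% were. The gene called higher in both was mLPD2, for a lipoamide dehydrogenase (0.41 and 0.31), named after its values were seen. The largest decreases were those of GLYK, the glycerate kinase gene, lower by 0.61 (SE 0.09), and of GLDH1 and GLDH3, for carrier subunits of glycine decarboxylase, lower by 0.58 (SE 0.12) and 0.44 (SE 0.11) on the log2 scale. The call of GLYK held under all 3 centrings. That of GLDH1 was lost with the median centring (adjusted p = 0.073), and that of GLDH3 under all 3 (adjusted p = 0.075 to 0.32).

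Of the other genes for serine hydroxymethyltransferases, which interconvert serine and glycine, 3 of 5 were measured. Of these 2 were called higher and 1 did not pass, where 23.9% of all tested probe sets were called higher. SHM7, known from work on sulfur accumulation, had log2 values of 7.57, 7.64 and 8.14 in mock and 9.86, 9.70 and 9.99 in H2O2. Its groups were far apart, and it was 4.19-fold higher (SE 0.15 log2). SHM6 was 1.59-fold higher, and SHM3, for the plastid enzyme, had a log2 change of -0.10 (adjusted p = 0.30 in limma).

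Sulfate reduction provides the sulfide that OAS-TL uses. Of its 8 genes, 6 were called higher, 1 lower and 1 neither. Among all tested probe sets 23.9% were called higher and 36.5% lower. The same counts were found under the median, mean and deviation centrings, where 43.3%, 36.7% and 34.0% of all tested probe sets were called higher. The gene called lower was APS4, for an ATP sulfurylase (-0.70), named after its value was seen. The APS reductase genes APR3, APR1 and APR2 had log2 changes of 3.24, 2.44 and 1.17.

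Downstream of cysteine, GSH1, for the first enzyme of glutathione synthesis, was 1.68-fold higher, with log2 values of 10.36, 10.33 and 10.40 in mock and 11.07, 11.07 and 11.20 in H2O2. In this list of 6 genes that carry cysteine on to glutathione or methionine, 1 was called higher, 2 lower and 3 neither, where 23.9% and 36.5% of all tested probe sets were called higher and lower. With the median centring 4 were called higher, GSH1, GSH2, CGS1 and CBL, where 43.3% of all tested probe sets were, and the last 3 of them were named after their values were seen. The 2 lower ones were the methionine synthase genes MS1 and MS2, which had identical values on all arrays and so count as 1 measurement (log2 change -0.40, SE 0.08), a call lost under all 3 centrings (adjusted p = 0.072 to 0.50). Of 6 genes for enzymes that use serine, 3 were measured. Among them PSS1, for phosphatidylserine synthase, was higher by 0.35, and LCB2a, for a subunit of the enzyme that opens sphingolipid synthesis, was lower by 0.44, a call lost with the median and mean centrings (adjusted p = 0.30 and 0.056) and kept with the deviation centring (adjusted p = 0.043).

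MYB34 and MYB51, transcription factors of indole glucosinolate synthesis, are reported to activate genes of the phosphorylated pathway in Arabidopsis. Of 5 genes for glucosinolate MYB factors, 3 passed the filter. MYB51 was 2.19-fold higher (mean log2 value 5.85 in mock and 6.98 in H2O2, SE of the change 0.10), and its groups did not overlap. MYB34 had a log2 change of -0.02 with a wide 95% interval of -0.75 to 0.72, with a mock SD of 0.65. MYB28 had a change of 0.00 (adjusted p = 0.99) and was called higher with the median centring (0.31, adjusted p = 0.035).

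**Figure D4:**
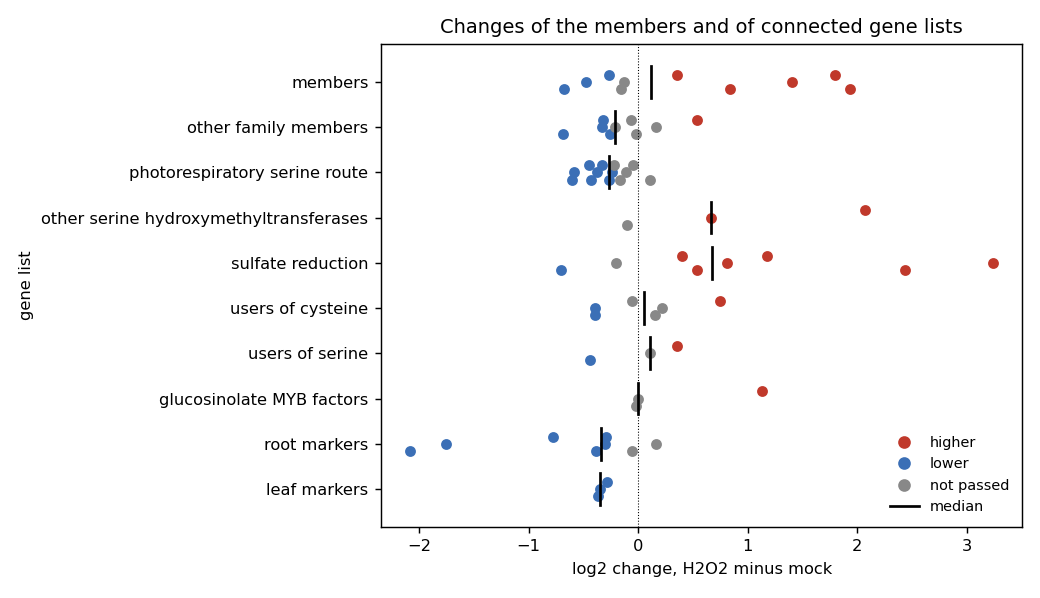
Log2 change, H2O2 minus mock (horizontal axis), of each tested gene in the members and in connected lists, coloured by call, with the median of each list as a black bar. Among the serine and cysteine lists, changes above 1 appear for 3 members, SHM7 and the 3 APS reductase genes, and among the MYB factors for MYB51.

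The phosphorylated pathway is more active in roots than in green leaves, and the labels leave the organs in these pools unclear, so organ markers were set beside the members. Of 9 root markers, all were in the table and 8 passed the filter. Of these 6 were called lower and 2 neither, where 36.5% of all tested probe sets were called lower. The mean log2 value of all 9 per array ran from 6.97 to 7.00 in mock and from 6.26 to 6.43 in H2O2. PRP3 and XTH14, genes of root hairs, were lower by 2.08 and 1.76, whereas PYK10, an abundant root gene, had a log2 change of -0.05 (adjusted p = 0.60 in limma). RHD6 was lowest, with a mean of 2.76, below the filter. The CASP1 call (adjusted p = 0.049 in limma) was lost with quantile normalization (adjusted p = 0.079). It was also lost without mock replicate 1, 2 or 3 (adjusted p = 0.073 to 0.12). MRN1, called lower too, lay close to the filter and fell below it without mock replicate 1, 2 or 3. With each centring PRP3, XTH14 and PIN2 were called lower and CASP4 higher. Among all tested probe sets 13.3% to 21.1% were called lower there and 34.0% to 43.3% higher. Of 8 leaf markers, 3 were measured, and all 3, PSBP1, PSBO1 and LHCA1, were lower by 0.29 to 0.37, calls lost under all 3 centrings. The LHCA1 call was also lost without mock replicate 1, mock replicate 2 or H2O2 replicate 3 (adjusted p = 0.057 to 0.066 in limma). Quantile normalization ended it as well (adjusted p = 0.12 in limma). The mean of the 3 ran from 12.15 to 12.27 in mock and from 11.80 to 11.95 in H2O2. The part of organ shares in the members' changes was not tested, and in such pools fewer cells of a type and less RNA per cell cannot be told apart.

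For the member with the largest change among the dehydrogenase genes, the aminotransferase and phosphatase pair, the acetyltransferase genes and the OAS-TL genes, the 3 other probe sets with the nearest values were taken by Euclidean distance over the 6 arrays, each gene centred on its mock mean, among 14991 probe sets. Nearest to PGDH2 were AAC3 (distance 0.15), ABI2 (0.16) and CAD1 (0.16), with log2 changes of 1.80, 1.76 and 1.84. Nearest to PSAT1 were FH8 (0.13), BOB1 (0.13) and AT1G51620 (0.15). For SERAT2;1 they were TDR1 (0.28), ABCC2 (0.29) and GSTU9 (0.30), and for OASB BGAL17 (0.04), AT1G48230 (0.05) and AT1G07830 (0.06). Such distances depend on how many probe sets change by a like amount, so they do not compare one member with another. The distance is a description over 6 arrays, and none of the other 9 members was a candidate.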

How the data were processed

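Transcripts were measured in 3 mock and 3 H2O2 pools. The authors deposited log2 values made with GCRMA, as named in the submitters' processing notes (a method that subtracts background estimated from probe sequence, makes arrays comparable and combines the probes of a gene). That they are log2 was inferred from their range. Chip type, probe definition and the version of GCRMA were not given in the sources used here. Array medians lay between 5.66 and 5.74. No member shared its values with another locus. Gene names and neighbours were looked up in a RefSeq table (assembly TAIR10.1), and no coordinates were taken from it.

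Probe sets with a mean under the 30th percentile were left out (6429, with 15001 kept). The rest were fitted with limma 3.58.1 in R 4.3.3 (H2O2 minus mock, Benjamini-Hochberg adjustment over all kept, 4 residual degrees of freedom). The script was tested on simulated data. Figures used matplotlib 3.10.9.

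The members, lists and tests were chosen with earlier results of these data known. All members are named, with the 3 nearest probe sets for the most changed gene of each of 4 enzyme classes (aminotransferase and phosphatase as 1 class), all other family genes, and of each further list up to 3 called genes with the largest changes. Some genes of the further lists are named outside this rule, among them SHM3, MYB34, MYB28, PYK10, RHD6, CASP4, CASP1, MRN1, AGT1 and HPR1.

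Deviations from the group means correlated at 0.19, 0.21 and 0.21 for arrays with the same replicate number and below 0 otherwise. The main fit did not use the numbers, since no label says what they share, so its intervals and p-values are unpaired. A paired model with the number as a block was an alternative. Others were the filter (none, or the 50th percentile), low values raised to 3.74, quantile normalization, centring on the median of 7 reference genes, a trended robust prior and each array left out. Centring on their mean, and on the median of each gene's deviation from its own mean, were chosen after seeing the data. Sequences of these genes were not used here, and a planned motif search was not made.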

Additional observations from a re-analysis of the deposited data

How the results depend on the processing

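Over 15 alternatives the 10 members gave 150 log2 changes, of which 144 kept their direction where called and their side of the threshold. The changed filters, the raised low values, the trended robust prior and the replicate block left each member's log2 change as it was. In these only the adjusted p could move. The 5 members called higher were 5 under every alternative run, and the lowest and highest log2 changes were 1.75 and 2.102 for PGDH2, 1.36 and 1.72 for PSAT1, 1.80 and 2.25 for SERAT2;1, 0.79 and 1.14 for SERAT2;2 and 0.32 and 0.67 for PGDH1. The members called lower were 1 in place of 3 with reference gene centring and also 1 with centring on the mean of the reference genes, and 2 with centring on the median deviation of the reference genes, where PSP1 stayed called. With reference gene centring the change of OASB turned to 0.041 and that of PSP1 was -0.17. These follow from the construction of the centring, which adds 1 offset per array to all probe sets. Without each array in turn, 2 to 3 members were called lower. With the replicate number as a replicate block, 9424 probe sets were called in place of 9066, and no member's call changed. Among other genes named, only DES1 changed with the block. Every value rests on 3 arrays a group. The median centring moved every change by 0.31, and some decreases larger than that lost their call with it, such as that of GLDH1 (-0.58).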
